A study of Homo sapiens with 6 samples.

Results

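The 58 genes described here encode the actin cytoskeleton and its contractile machinery: actins, myosin II, tropomyosins, the proteins that bundle, branch, cap, sever or anchor actin filaments, and regulators of these. They were listed by name and function, with earlier results of these data known, and all 58 were among the 16922 genes of the deposited table and passed the filter on low values, which left 16901 genes. RNA was compared between 2 lines, with 3 libraries each. 786-O is an established clear cell renal cell carcinoma (ccRCC) line, labelled parental, and 786-OFOXD1null is a derivative of it whose genotype is labelled FOXD1 null. FOXD1 is a forkhead transcription factor known from the stroma of the developing kidney. Both lines were kept in RPMI-1640 with serum, neither was treated, and RNA was taken from plates at 70% confluency. How the allele was made, and whether the derivative is 1 clone, was not given in the sources used here. Hence a change due to the allele and one due to the derivation of the line cannot be told apart. The labels speak of biological triplicates but do not say that replicates were separate cultures, so the p-values measure only how far these libraries differ, which may be technical.

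Actin monomers assemble into filaments that are branched by the Arp2/3 complex, elongated by formins, and cut and recycled by cofilin and profilin. Myosin II pulls on filaments coated with tropomyosin, and does so when its regulatory light chains are phosphorylated by myosin light chain kinase or by the kinases ROCK1 and ROCK2. Filaments end at the membrane in focal adhesions, where talin, vinculin, paxillin and zyxin link them to integrins. Many of these genes are known targets of the serum response factor SRF, which binds the CArG box and is switched on by the coactivators MRTFA and MRTFB when free actin monomer runs low. In carcinoma cells the same machinery drives migration and the constriction of the cleavage furrow at the end of mitosis.

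Because SRF is the best known regulator of this group, promoters were searched for its CArG box, a CC, 6 bases of A or T, and a GG, which reads the same on both strands. RefSeq promoters on GRCh38.p14, from 250 bases before to 50 after a gene's start, were given for 52 of the 58 genes, as 86 promoters. Those of ARPC1B, ACTB, FSCN1, PFN2, MYL9 and TAGLN were not used here. The box was found in 9 promoters of 8 genes, which is 10.5% of these promoters against 1.29% of all 35116 promoters. The stretches around it are shown here with the box in capitals, 5′ to 3′ on the strand of the gene. They belong to members that rose, to members that did not pass and, for a fall, to MYLK only. Whether the box goes with the direction of change was not tested.
MYLK (chr3:123620608-123620667, minus strand): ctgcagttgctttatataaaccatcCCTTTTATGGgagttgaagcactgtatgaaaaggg
FLNA (chrX:154374694-154374753, minus strand): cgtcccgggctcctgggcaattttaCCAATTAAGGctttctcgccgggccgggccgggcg
TPM4 (chr19:16067340-16067399, plus strand): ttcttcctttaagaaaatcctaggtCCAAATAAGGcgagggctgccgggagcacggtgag
ACTG1 (chr17:81512859-81512918, minus strand): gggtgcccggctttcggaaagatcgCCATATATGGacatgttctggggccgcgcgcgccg
ACTN1 (chr14:68977703-68977762, minus strand): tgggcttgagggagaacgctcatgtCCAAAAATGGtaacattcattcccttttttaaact
CNN2 (chr19:1026494-1026553, plus strand): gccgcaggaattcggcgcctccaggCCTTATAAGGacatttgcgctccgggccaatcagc
ROCK2 (chr2:11345476-11345535, minus strand): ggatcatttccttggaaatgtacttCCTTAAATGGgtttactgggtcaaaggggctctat
RND3 (chr2:150487733-150487792, minus strand): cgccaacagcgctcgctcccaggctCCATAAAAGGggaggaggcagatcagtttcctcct
The box ended 85 bases before the start in MYLK, FLNA and ACTG1, and 164 bases before it in TPM4. RND3 has a pair of starts that share 1 box. Only in FLNA and CNN2 did the box lie before the outermost start of the gene. In MYLK, TPM4, ACTG1, ACTN1, ROCK2 and RND3 it lay inside the gene's span, before an inner start, and in MYLK near the 3′ end. Of these 8 genes, FLNA and TPM4 were higher in the libraries labelled FOXD1null and MYLK was lower. ACTG1, ACTN1, CNN2, ROCK2 and RND3 did not pass. The core letters GTAAACA, bound by forkhead factors in general, were found on either strand in 1 of the 86 promoters, that of CALD1, and in 3.42% of all promoters. A match is only a match of letters in this window.

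FOXD1 itself had counts, after normalization, of 432, 498 and 480 in 786-O, against 1277, 1048 and 901 in the libraries labelled FOXD1null. The difference was 1.18 on the log2 scale (SE 0.13, the SE being a standard error, limma adjusted p = 3.9e-04). The targeted gene thus had more RNA under the null label, so directions are given for the libraries labelled FOXD1null, not for the loss of FOXD1. Libraries held between 30982463 and 37843830 reads in genes, and their normalized totals were 34208486 to 34812438 in 786-O and 36343954 to 37038256 under the null label.

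Replicate 1 of the libraries labelled FOXD1null stood apart from replicates 2 and 3. It was the highest of its group in 39 members and the lowest in 17, and its median distance from the mean of replicates 2 and 3 was 0.22 on the log2 scale, against 0.05 between replicates 2 and 3. Its distance ran with transcript length. Over all genes tested, it was above the other replicates by a median of 0.18 for transcripts under 1901 bases and below them by a median of -0.17 for those over 3909 bases. Among the members the Spearman correlation of length with this distance was -0.66, against -0.19 for replicate 1 of 786-O. These are descriptions across 58 genes of the same libraries, and RNA quality was not tested. Across the genes tested, replicate 1 correlated with the 786-O libraries at a Pearson r of 0.972 to 0.977, and replicates 2 and 3 did so at 0.953 to 0.960, as a description of these libraries. In WASF3, MYO1D and RHOB, given with their values further on, replicate 1 lay between 786-O and replicates 2 and 3, and why it did was not tested.

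**Figure D1:**
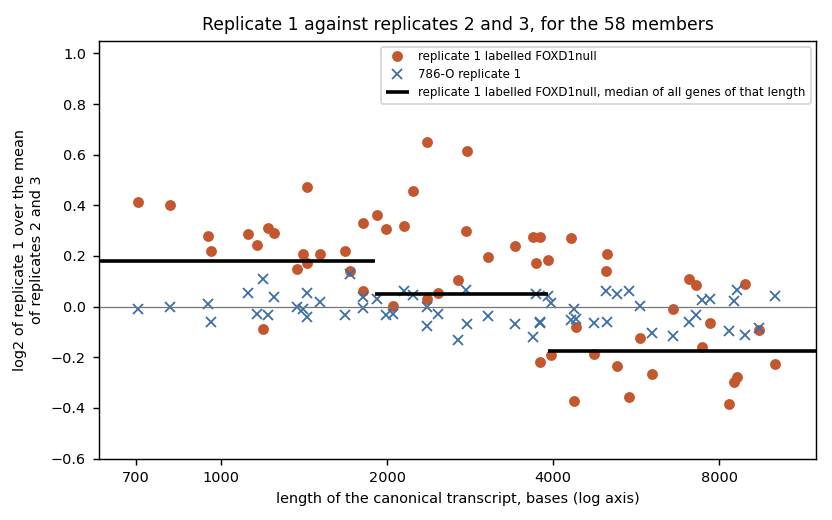
Length of each member's canonical transcript (horizontal, log axis, bases) against the log2 of replicate 1 over the mean of replicates 2 and 3 (vertical), for the libraries labelled FOXD1null (circles) and 786-O (crosses). Black bars are medians of all genes tested, in 3 classes of length, for replicate 1 labelled FOXD1null. Its short transcripts lie mostly above 0 and its long ones mostly below, while 786-O lies near 0 at every length.

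Of 10 listed markers of the carcinoma, 9 were in the table, CA9 being the exception, and each had counts in every library. NDUFA4L2 was near the floor, at 30.0 normalized counts in 786-O and 32.6 under the null label. By limma, CDH6 fell by 1.93 and PAX2 by 0.35 on the log2 scale. VEGFA rose by 1.39, VIM by 0.47 and PAX8 by 0.26. KRT8, KRT18, EPAS1 and NDUFA4L2 did not pass. Of 7 endothelial markers 0 were in the table, and of 7 leukocyte markers only CD68 was. Smooth muscle and pericyte markers, 7 of 10 in the table, summed to 290 to 437 normalized counts per library in both groups. Fibroblast markers, 5 of 9 in the table, summed to 764 to 907 in 786-O and 291 to 455 under the null label. Most of this sum was COL1A1. The 120 other genes tested within 5 Mb of COL1A1 on chromosome 17 had a median log2 fold change of -0.45, and the part of that stretch in it was not tested. By limma, COL1A1, LUM and PDGFRB were lower, and COL3A1 and THY1 did not pass. Cardiac muscle markers, 6 of 12 in the table, summed to 18, 4730 and 63 in 786-O, against 468, 52 and 37 under the null label. Replicate 2 of 786-O was high in this list, and in it the cardiac actin ACTC1 had 501 normalized counts against 1.1 and 6.4 in the other two. Replicate 1 labelled FOXD1null was the highest of its group. It had ACTC1 at 56.1, against 1.0 and 0.97 in replicates 2 and 3, and MYH6 at 237, against 0 and 1.9. The cardiac list's part in each member was not tested. NEBL changed by -0.92 with and -0.89 without replicate 2 of 786-O. Without that library NEBL and CFL2 kept their calls, and TPM2 lost its call, as it did without replicate 1 or 3 of 786-O. Hepatocyte markers, 5 of 8 in the table, summed to 2688, 4034 and 2930 in 786-O, against 8256, 9030 and 8603 under the null label, most of it SERPINA1. Replicate 2 of 786-O was high here too, with FGB at 330.0, FGG at 335 and ALB at 139 normalized counts, ALB being at 1.1 and 7.4 in the other two. Replicate 1 labelled FOXD1null had FGB at 37.7, against 3.0 and 0 in replicates 2 and 3. The part of the hepatocyte list in the members was not tested.

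More of the 58 genes were higher than lower in the libraries labelled FOXD1null. By limma, 27 were higher, 7 were lower and 24 did not pass at an adjusted p of 0.05. Over all genes tested, 33.4% passed, 16.3% as higher and 17.1% as lower, while 58.6% of the members passed, 46.6% as higher and 12.1% as lower. Among the 6581 genes with a mean of at least 1000 normalized counts, nearer to the level of these abundant members, 37.3% passed, 22.2% as higher and 15.1% as lower. The members' median log2 fold change was 0.23, in a range of -1.29 to 0.91, against a median of -0.01 over all genes. Of the 58 members, 7 passed with a change of at least 1.5-fold (0.58 on the log2 scale), against 16.2% of all genes. That share was not taken for the 6581 genes of high level. The 7 members were RHOB, NEBL, MYLK and CFL2, which fell, and ARPC1B, FLNA and RHOC, which rose. Just inside lay CFL2 at -0.60 and RHOC at 0.61, and just outside ZYX at 0.57, MYH10 at -0.56 and ARPC2 at 0.55. The 3 libraries of each group did not overlap in 42 members, 33 higher and 9 lower, against 49.0% of all genes (24.1% higher and 24.9% lower).

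The count of members called depended on single libraries. Without replicate 1 labelled FOXD1null, 39 members were higher and 13 lower, all 34 calls were kept, and 55.0% of all genes passed (27.4% higher and 27.6% lower). The members gained were 12 as higher (ACTB, ACTG1, MYL6, MYL9, VCL, TLN1, PXN, PDLIM5, ARPC4, ACTR2, DIAPH3 and ROCK2) and 6 as lower (TPM1, TAGLN, CNN3, ACTN1, ACTN4 and PFN1). DESeq2 on recovered reads called 29 members higher and 8 lower, against 34.6% of all genes (17.4% higher and 17.2% lower). When replicate 1, 2 or 3 of 786-O was left out, 23, 22 and 23 members passed, against 3621, 4014 and 3640 of all genes (21.4%, 23.8% and 21.5%). Without replicate 2 or 3 labelled FOXD1null, 26 and 27 members passed, against 4139 and 4571 of all genes (24.5% and 27.0%). Of the 34 members called, 22 passed under each of the 15 alternatives tried, 17 higher and 5 lower. The other 12 lost their call under at least 1 of them, and they are MYL12B, TPM2, PDLIM1, LASP1, RDX, CFL1, DSTN, PFN2, ARPC3, WASL, DIAPH1 and ROCK1. With the libraries rescaled to equal totals, 19 members were higher and 9 lower, and over all genes 2040 were higher and 3873 lower, against 2751 and 2888 as deposited.

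**Figure D2:**
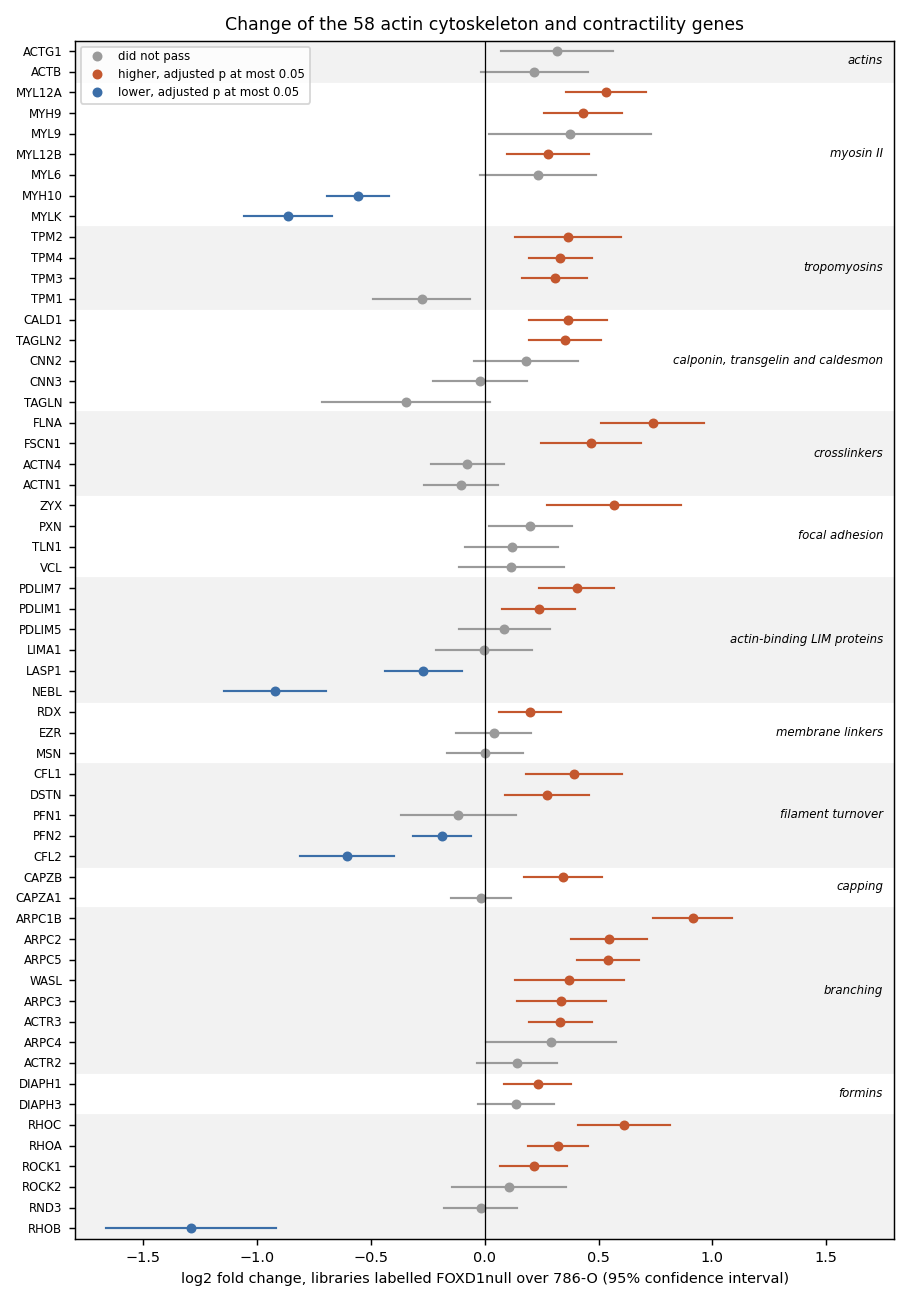
Log2 fold change of the 58 members, libraries labelled FOXD1null over 786-O (horizontal), with 95% confidence intervals from limma, grouped by role, with the lowest group given by gene names only. Red points passed as higher (27), blue points as lower (7) and grey points did not pass (24). The points run from -1.29 for RHOB to 0.91 for ARPC1B.

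Summed over the 58 genes, 1358333 ± 23595 normalized counts in 786-O stood against 1688484 ± 77078 under the null label (SD, n = 3 libraries per group), and no library of one group overlapped the other. The members took 3.93% ± 0.03 of all normalized counts in 786-O and 4.59% ± 0.17 in the libraries labelled FOXD1null. In these cultures, more RNA per cell and more cells of a kind rich in it cannot be told apart. By role, the ratio of the summed counts was highest for the crosslinkers at 1.5, where FLNA is most of the sum, followed by the branching genes at 1.39 and myosin II at 1.28. It was 0.99 for the actin-binding LIM proteins and 1.03 for the membrane linkers, where the libraries of both groups overlapped. Filament turnover, at 1.09, overlapped too.

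**Figure D3:**
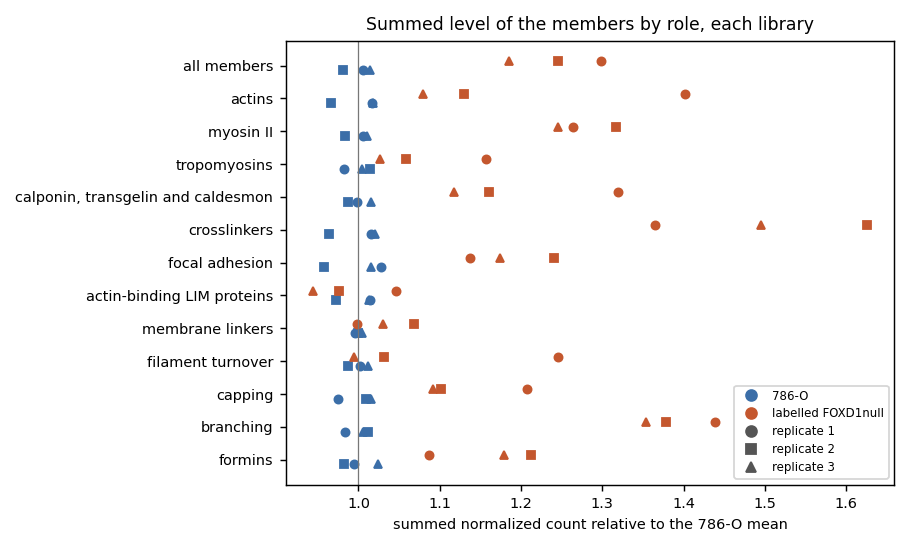
Summed normalized counts of the members by role in each library, relative to the mean of 786-O (horizontal). Blue marks are 786-O, red marks the libraries labelled FOXD1null, and the shape gives the replicate. Crosslinkers, branching genes and myosin II lie farthest to the right, and the LIM proteins and membrane linkers stay near 1.

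The cytoplasmic actins were not called, although both were above 786-O in every library labelled FOXD1null. ACTB, beta-actin, had 220105, 209037 and 219286 normalized counts in 786-O, against 292986, 237664 and 228209 under the null label. Replicate 1 was the highest of its group by far. The log2 fold change of ACTB was 0.22 (limma adjusted p = 0.14), and it was 0.11 without that replicate, with adjusted p between 0.023 and 0.34 over the alternatives. ACTG1, gamma-actin, was at 0.32 (limma adjusted p = 0.053, 0.017 from DESeq2 and 4.3e-04 to 0.16 over the alternatives), and at 0.20 without replicate 1. Per kilobase of transcript, ACTG1 made up 38.5% ± 0.14 of the 2 actins in 786-O and 40.2% ± 0.35 under the null label. Coding sequences of the actins are nearly identical and have many processed pseudogenes, and the authors counted uniquely mapped reads, so the levels of ACTB and ACTG1 are uncertain in themselves. The same holds for MYL12A, MYL12B, CFL1 and PFN1.

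In myosin II, the heavy chains moved apart. MYH9, the heavy chain of non-muscle myosin IIA, had 117709, 113741 and 117535 normalized counts in 786-O, against 146087, 168532 and 157580 under the null label. All 3 libraries of one group were above the other, and the log2 fold change was 0.43 (SE 0.07, limma adjusted p = 0.0031). MYH10, the heavy chain of myosin IIB, fell by 0.56 on the log2 scale (limma adjusted p = 3.3e-04). It lies on chromosome 17, where the 146 other genes tested within 5 Mb had a median log2 fold change of -0.55, close to the value of MYH10, and the part of that stretch in it was not tested. As a share of both heavy chains per kilobase, MYH10 went from 4.99% ± 0.05 to 2.57% ± 0.11, a drop which the rise of MYH9 also enters.

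Among the light chains, MYL12A and MYL12B, neighbouring genes for the regulatory light chain, rose by 0.53 and 0.28 on the log2 scale (limma adjusted p = 0.0013 and 0.027). MYL12A grew from 48.3% ± 0.49 to 52.4% ± 0.84 of the regulatory light chains per kilobase, and MYL12B went from 44.1% ± 0.62 to 40.1% ± 0.28. The third, MYL9, known as the smooth muscle form, was at 0.37 and did not pass (limma adjusted p = 0.10), and without replicate 1 labelled FOXD1null it was at 0.17. MYL6, the essential light chain, was at 0.23 and did not pass either. It was at 0.10 without that replicate, when both passed as higher.

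MYLK, the kinase that phosphorylates these light chains, went the other way. Normalized counts were 6285, 5759 and 6440 in 786-O, against 3045, 3638 and 3484 in the libraries labelled FOXD1null. Even the lowest 786-O library was above the highest of the other group. MYLK fell by 0.86 on the log2 scale (SE 0.08, limma adjusted p = 2.3e-04), from 6161 ± 357 to 3389 ± 308, and by 0.79 without replicate 1 labelled FOXD1null. Its gene (ENSG00000065534, minus strand of chromosome 3 from 123610049 to 123884332) has neighbours with a median of 0.04. The box shown for MYLK lies inside this span, near its 3′ end, and not before the outermost start of the gene.

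**Figure D4:**
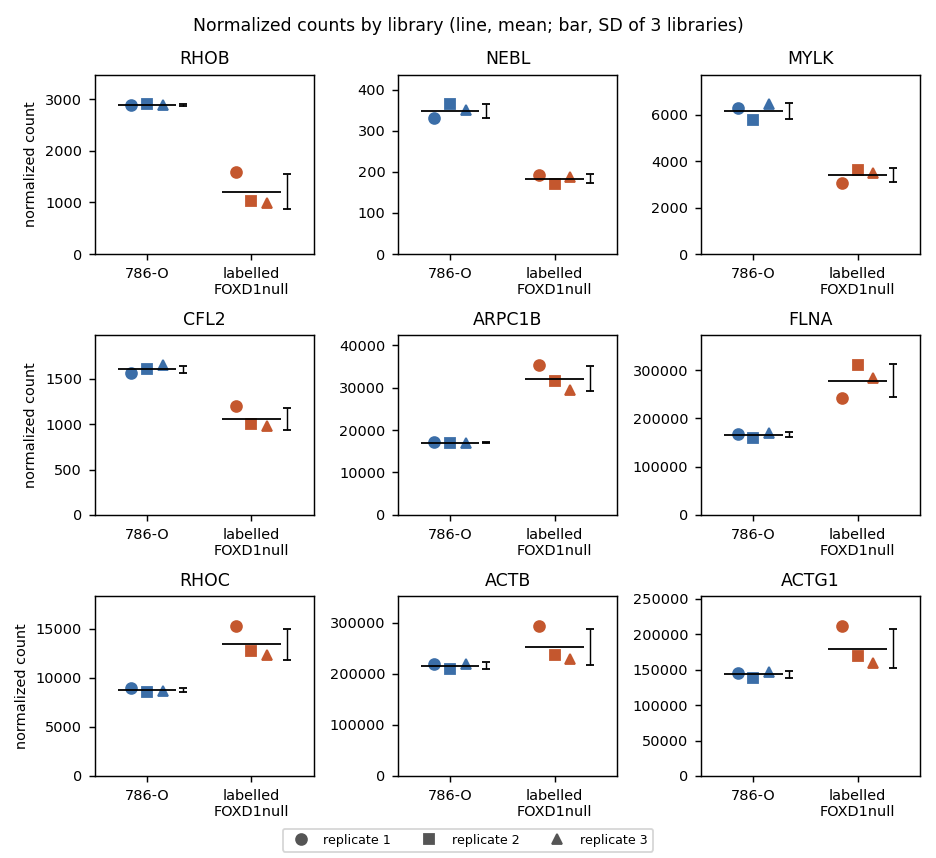
Normalized counts in each library (vertical, from 0) for the 7 members that passed with a change of at least 1.5-fold and for ACTB and ACTG1. Lines are means and bars the SD of 3 libraries, and the shape gives the replicate. RHOB, NEBL, MYLK and CFL2 lie lower and ARPC1B, FLNA and RHOC higher under the null label with no overlap, while replicate 1 stands above the others of its group in RHOB, ACTB and ACTG1.

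Tropomyosins, which lie along the filament and set which proteins can bind it, shifted away from TPM1. TPM4 had 39855, 40394 and 40946 normalized counts in 786-O, against 52194, 51366 and 49100 under the null label, with no overlap, and rose by 0.33 on the log2 scale (SE 0.06, limma adjusted p = 0.0039). TPM3 rose by 0.31 and TPM2, at a far lower count, by 0.37. TPM1 was at -0.28 and missed the threshold (limma adjusted p = 0.0502), while DESeq2 called it lower (adjusted p = 0.031), as did the fit without replicate 1 labelled FOXD1null at -0.38, with a range of 9.9e-08 to 0.16 over the alternatives. Per kilobase, TPM1 took 64.8% ± 0.52 of the tropomyosins in 786-O and 54.7% ± 2.47 under the null label, and TPM4 took 28.3% ± 0.48 and 36.5% ± 2.11. These shares use the length of 1 canonical transcript per gene, and the genes make isoforms of several lengths. TPM1 lies on chromosome 15, where the 82 other genes tested within 5 Mb had a median log2 fold change of -0.24. The part of that stretch in the change of TPM1 was not tested. Exons of a gene on the other strand cover 22.7% of those of TPM1, and without a stated strand setting their reads cannot be told apart.

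**Figure D5:**
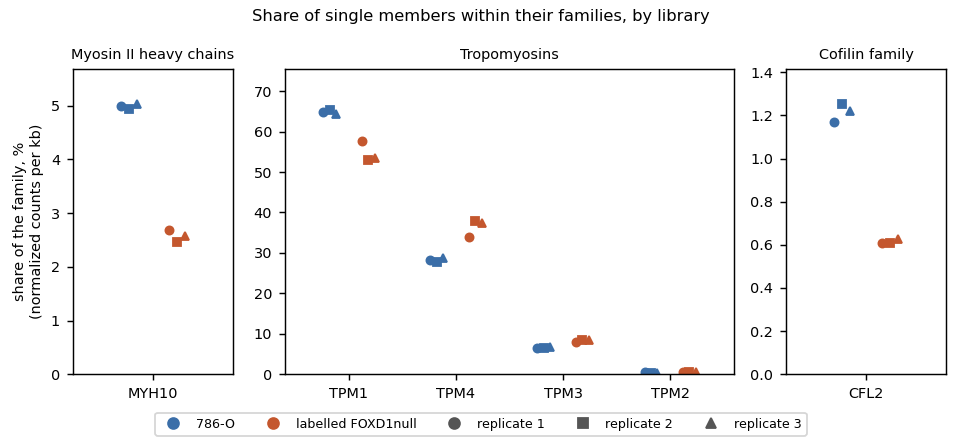
Share of single members within their family in each library (vertical, percent of normalized counts per kilobase). Blue marks are 786-O, red marks the libraries labelled FOXD1null, and the shape gives the replicate. The shares of MYH10, TPM1 and CFL2 are lower under the null label in each library, and that of TPM4 is higher.

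Of the calponin, transgelin and caldesmon genes, which bind the filament beside tropomyosin, 2 of 5 rose, against 16.3% of all genes. TAGLN2, a transgelin of non-muscle cells, had 35660, 35323 and 36007 normalized counts in 786-O, against 48794, 45479 and 42634 under the null label, a log2 fold change of 0.35 (SE 0.07, limma adjusted p = 0.0055). CALD1, caldesmon, rose by 0.37. The smooth muscle gene TAGLN was near the bottom of the range, at 107 ± 6.26 normalized counts in 786-O and 84.7 ± 14.2 under the null label, and was not called (-0.35, limma adjusted p = 0.14), but passed as lower, at -0.44, without replicate 1 labelled FOXD1null. Its exons overlap those of other genes on the same strand by 38.1%. CNN2 at 0.18 and CNN3 at -0.02 did not pass, though CNN3 passed as lower, at -0.12, without that replicate.

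Among the crosslinkers, FLNA and FSCN1 rose and the alpha-actinins did not pass. FLNA, filamin A, which joins filaments into a loose network and ties them to integrins, had 167833, 160433 and 170023 normalized counts in 786-O, against 241564, 309759 and 284015 in the libraries labelled FOXD1null. No library overlapped, and replicate 1 was the lowest of its group. The log2 fold change of FLNA was 0.74 (SE 0.10, limma adjusted p = 9.4e-04) and 0.84 without replicate 1. FLNA (ENSG00000196924) lies on the minus strand of chromosome X from 154348524 to 154374634, and the 71 other genes tested within 5 Mb had a median of 0.40. FSCN1, fascin, which packs filaments into the straight bundles of filopodia, rose by 0.47 (limma adjusted p = 0.0070) in a stretch of chromosome 7 with a median of -0.24. ACTN1 and ACTN4 were at -0.11 and -0.08 and their groups overlapped. Without replicate 1 they were at -0.16 and -0.12 and passed as lower.

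At focal adhesions, ZYX was called and VCL, TLN1 and PXN were not. TLN1, talin, which activates integrins and binds actin, had 20417, 19009 and 19996 normalized counts in 786-O, against 18915, 23684 and 22202 under the null label. Replicate 1 fell below all of 786-O and replicates 2 and 3 lay above, so the groups overlapped. The log2 fold change of TLN1 was 0.12 (limma adjusted p = 0.35), and without replicate 1 it was 0.21. VCL, vinculin, showed the same order, at 0.12 with and 0.24 without replicate 1. Both passed as higher without that library, with adjusted p from 3.6e-05 to 0.87 for VCL and from 2.8e-04 to 0.84 for TLN1 over the alternatives. ZYX, zyxin, rose by 0.57 (SE 0.13, limma adjusted p = 0.011), with replicate 1 the highest, and was at 0.41 without it. The 50 other genes tested within 5 Mb of ZYX had a median of 0.24. PXN, paxillin, was at 0.20 with and 0.28 without replicate 1, when it passed as higher.

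Actin-binding LIM proteins split, with 2 higher, 2 lower and 2 not passing, against 16.3% higher and 17.1% lower over all genes. PDLIM7 and PDLIM1, adaptors of stress fibres, rose by 0.40 and 0.24. PDLIM5 was at 0.09, and passed as higher, at 0.18, without replicate 1 labelled FOXD1null. LASP1 had 19291, 18098 and 19418 normalized counts in 786-O, against 17091, 15467 and 14644 under the null label. It fell by 0.27 on the log2 scale (SE 0.07, limma adjusted p = 0.024), without overlap. The 171 other genes within 5 Mb of it on chromosome 17 had a median of -0.34. Leaving out any 1 library other than replicate 1 labelled FOXD1null lost the call (limma adjusted p up to 0.11), as did the replicate block.

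NEBL, nebulette, a relative of LASP1 known from heart muscle, fell much more. It had 331, 364 and 351 normalized counts in 786-O, against 192, 172 and 188 under the null label, and the groups were far apart. NEBL fell by 0.92 on the log2 scale (SE 0.10, limma adjusted p = 3.3e-04) and by 0.95 without replicate 1. It lies on the minus strand of chromosome 10 from 20779973 to 21293011 (ENSG00000078114), where neighbouring genes had a median of 0.17. Per kilobase of transcript its level was 39.1 in 786-O, far under the 4843 of LASP1.

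The membrane linkers, which tie the cortex to the plasma membrane, hardly moved. MSN, moesin, had 30722, 30340 and 30566 normalized counts in 786-O, against 28003, 32826 and 31079 under the null label, with 786-O inside the range of the other group. Its log2 fold change was 0.00, with a 95% confidence interval of -0.17 to 0.17. EZR, ezrin, was at 0.04 and did not pass, and RDX, radixin, rose by 0.20 (limma adjusted p = 0.033).

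In filament turnover, the cofilin family moved apart. CFL1, the main cofilin of non-muscle cells, had 35777, 33843 and 35859 normalized counts in 786-O, against 52802, 44087 and 42153 under the null label, with no overlap. The log2 fold change of CFL1 was 0.39 (SE 0.09, limma adjusted p = 0.012), and without replicate 2 of 786-O it missed the threshold (adjusted p = 0.056, the highest over the alternatives, from 5.2e-06). DSTN, destrin, which severs filaments as well, rose by 0.27.

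CFL2, the muscle-type cofilin, fell. Normalized counts were 1565, 1602 and 1647 in 786-O, against 1196, 997 and 983 in the libraries labelled FOXD1null, from 1604 ± 41.0 to 1059 ± 119. CFL2 fell by 0.60 on the log2 scale (SE 0.09, limma adjusted p = 0.0015) and by 0.70 without replicate 1, which was the highest of its group. The gene (ENSG00000165410) lies on the minus strand of chromosome 14 from 34709113 to 34714823, and its neighbours had a median of -0.03. As a share of CFL1, CFL2 and DSTN per kilobase, CFL2 went from 1.21% ± 0.04 to 0.62% ± 0.01, and replicate 1 lay with the others on this measure. Profilins hand actin monomers to the growing end. PFN2 fell by 0.19 (limma adjusted p = 0.032), and PFN1 was at -0.12 with replicate 1 above and replicates 2 and 3 below all of 786-O. Without replicate 1 it was at -0.25 and passed as lower. PFN1 too lies on chromosome 17, with neighbours at a median of -0.56.

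Capping protein, a dimer that stops growth at the fast end, is made of an alpha and a beta subunit. CAPZB, the beta subunit, had 11600, 11750 and 11963 normalized counts in 786-O, against 16520, 14382 and 14030 under the null label, and rose by 0.34 on the log2 scale (SE 0.07, limma adjusted p = 0.0089). CAPZA1, an alpha subunit, was at -0.02 (95% confidence interval -0.15 to 0.12).

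Of the branching genes, 6 of 8 were higher and 0 lower, against 16.3% and 17.1% of all genes. ARPC1B, a subunit that joins the Arp2/3 complex to its activators, had 17103, 16970 and 16835 normalized counts in 786-O, against 35206, 31509 and 29466 in the libraries labelled FOXD1null. The groups were far apart, and replicate 1 was again the highest. ARPC1B rose by 0.91 on the log2 scale (SE 0.08, limma adjusted p = 1.2e-04), from 16969 ± 134 to 32060 ± 2909, and by 0.84 without replicate 1. It lies on the plus strand of chromosome 7 from 99374249 to 99394816 (ENSG00000130429), its neighbours had a median of 0.19, and 23.1% of its exons overlap those of other genes on the same strand.

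Other subunits of the complex rose less. ARPC2 rose by 0.55, ARPC5 by 0.54, ARPC3 by 0.34 and ACTR3, one of its actin-related proteins, by 0.33. ARPC4 at 0.29 and ACTR2 at 0.14 did not pass, though both passed as higher without replicate 1 labelled FOXD1null, at 0.13 and 0.21. In that fit 8 of 8 branching genes passed as higher, against 27.4% of all genes (55.0% in either direction). Within the pair of interchangeable subunits, ARPC1B went from 71.3% ± 0.37 to 76.0% ± 0.59 of ARPC1A and ARPC1B per kilobase, and ARPC1A, on the list of further pathway genes, rose by 0.56 itself. WASL, which encodes the activator N-WASP, rose by 0.37 (limma adjusted p = 0.026). Its call was lost without replicate 1, 2 or 3 of 786-O or replicate 2 or 3 of the other group (limma adjusted p up to 0.093). With libraries rescaled to equal totals it was lost as well (limma adjusted p = 0.078). The 35 other genes tested within 5 Mb of WASL had a median of 0.24.

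Formins build straight filaments. DIAPH1, a diaphanous formin, had 11295, 11010 and 11550 normalized counts in 786-O, against 12508, 13849 and 13444 under the null label. It rose by 0.23 on the log2 scale (SE 0.06, limma adjusted p = 0.023), without overlap. The call of DIAPH1 was kept under 8 of the 15 alternatives. Its limma adjusted p went up to 0.099 when 1 library was left out, and was 0.11 with libraries rescaled to equal totals. The replicate block lost the call too. DIAPH3 was at 0.14 and did not pass, but passed as higher, at 0.20, without replicate 1 labelled FOXD1null.

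RHOA, which switches on ROCK and formins, had 21045, 21055 and 21209 normalized counts in 786-O, against 27129, 26139 and 25894 under the null label, and rose by 0.32 on the log2 scale (SE 0.06, limma adjusted p = 0.0035). RHOC, a close paralog linked to migration, had 8957, 8578 and 8676 against 15247, 12689 and 12301, with no overlap. RHOC rose by 0.61 (SE 0.09, limma adjusted p = 0.0013) and by 0.52 without replicate 1. It lies on the minus strand of chromosome 1 from 112701127 to 112707434 (ENSG00000155366).

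RHOB, known to sit on endosomes and to be induced early by growth factors and stress, had the largest fall of the 58 genes. Normalized counts were 2885, 2897 and 2877 in 786-O, against 1593, 1036 and 994 in the libraries labelled FOXD1null. The 786-O libraries were nearly equal, while replicate 1 lay between them and replicates 2 and 3. RHOB fell by 1.29 on the log2 scale (SE 0.16, limma adjusted p = 7.3e-04) and by 1.51 without replicate 1. It lies on the plus strand of chromosome 2 from 20447074 to 20449440 (ENSG00000143878), and the 36 other genes tested within 5 Mb had a median of -0.14. ROCK1, a kinase that acts on myosin II, rose by 0.21 (limma adjusted p = 0.033). ROCK2 at 0.11 and RND3, a GTPase that opposes ROCK, at -0.02 did not pass, though ROCK2 passed as higher, at 0.24, without replicate 1.

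Of 152 further genes of the pathway, 140 were in the table and tested. By limma, 48 were higher (34.3%) and 24 lower (17.1%), while 68 missed the threshold, and the median change was 0.14 on the log2 scale. Over all genes tested, 33.4% passed, 16.3% as higher and 17.1% as lower, and the groups of pathway genes counted next are small. Of the adaptors of adhesion sites, 13 of 25 were higher and 5 lower, and other turnover genes had 9 of 17 higher and 4 lower. Of the unconventional myosins, 2 of 9 were higher and 4 lower. SRF did not pass at 0.03, nor did MRTFB at -0.32, and MRTFA, its coactivator, fell by 0.44 (limma adjusted p = 0.0041). In the muscle-type list 4 of 10 genes were in the table, and ACTA2, smooth muscle actin, fell from 101 ± 6.44 to 70.4 ± 3.50 normalized counts (-0.51, limma adjusted p = 0.020).

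The largest rise in this list was that of PDLIM4, an adaptor related to PDLIM1 and PDLIM7. It had 37.9, 55.3 and 42.3 normalized counts in 786-O, against 229, 260 and 261 under the null label, a log2 fold change of 2.46 (SE 0.17, limma adjusted p = 5.0e-05). ARHGEF2, an activator of RHOA bound to microtubules, had 1796, 1710 and 1786 against 2728, 4196 and 4069, and rose by 1.03. ARHGDIB rose by 1.01, COTL1, coactosin, by 0.98 and RHOF, a GTPase of filopodia, by 0.92.

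Falls ran further than rises. WASF3, which encodes an activator of the Arp2/3 complex, had 300.2, 288 and 293 normalized counts in 786-O, against 63.6, 33.3 and 25.2 in the libraries labelled FOXD1null. It fell by 2.93 on the log2 scale (SE 0.29, limma adjusted p = 2.6e-04), opposite to the subunits of the complex that rose. MYO1D, a myosin of membranes, had 633, 623 and 591 against 163, 68.7 and 56.3, and fell by 2.83. In both, replicate 1 was the highest of its group. PPP1R14C, an inhibitor of protein phosphatase 1, fell by 1.94, MYO18A by 0.98 and CYFIP2, a part of the WAVE complex, by 0.75. MYO1D and MYO18A lie on chromosome 17 in stretches whose other genes had medians of -0.40 and -0.42.

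An exact permutation test of any single value cannot go below p = 0.1 with 3 libraries against 3, so the calls rest on limma's pooled spread. Exons of another gene covered over 10% of those of MYL6, TPM1, ACTN4, VCL, PXN and CFL1 on the other strand, of ARPC1B, ARPC4, RHOA and RHOC on the same strand, and of TAGLN on both. Values of these genes may include or lack reads of the other gene.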

How the data were processed

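The authors trimmed paired reads (2 × 150 bases, mRNA kit) with Trimmomatic 0.36. The paper itself calls the libraries total RNA, which differs from an mRNA kit. STAR 2.5.2b was their aligner, hg38 their genome and featureCounts their counter of unique reads over exons, and DESeq2 normalized the result. Annotation release and strandedness were not given in the sources used here. Each deposited signal value is a normalized count per gene and library, the count divided by 1 size factor per library. The deposited log2 fold changes, p-values, adjusted p-values and other columns of group means and their difference hold the authors' own comparison and were not used. Whole reads were recovered in each library (100% of values whole within 0.001 of a read), with size factors from 0.896 to 1.10.

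Groups came from the labels. Log2(normalized count + 1) was tested by limma 3.58.1 under R 4.3.3, its prior following the trend, where the mean was 10 or more, with p-values adjusted by the Benjamini-Hochberg method over 16901 genes, with 3 libraries against 3. A fold change is a difference of mean logarithms on that scale, which understates changes of low genes. The paper's test, DESeq2 1.42.0, and edgeR 4.0.16 were run on the recovered reads as alternatives, beside other pseudocounts (0.5 and 8), filters (none and a mean of 100), scalings, a replicate block and each library left out. The step was tested on simulated data. Symbols matched 15333 genes, and positions and canonical transcripts came from GENCODE release 44. Promoters came from RefSeq. Python 3.11.15 with pandas 2.3.3 and matplotlib 3.10.9 was used.

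The members, roles, pathway list and markers were chosen with earlier results of these data known. Values in every library were given for members that passed with a change of 0.58 or more on the log2 scale and for the member with the highest mean in each role, and for the actins and genes singled out in the text after their values were seen. From the pathway list, the 5 largest rises and 5 largest falls with a mean of at least 100 were named. The results of 1 group as a whole are not reported here.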

Additional observations from a re-analysis of the deposited data

How the results depend on the processing

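Members called numbered 34 and stayed within 1.5 times that count under each scaling, filter, pseudocount and tool (28 to 37). With 1 library left out they ran from 22 to 52, the further pathway genes from 46 to 108 against 72, and all genes from 3621 to 9302 against 5639. The highest count each time was without replicate 1 labelled FOXD1null. The summed level of the members was 0.31 on the log2 scale and 0.22 with libraries rescaled to equal totals, which moved the median of all genes from -0.01 to -0.10 and ended 8 members' calls. Deviations of same-numbered libraries from their group means correlated at -0.25, -0.23 and 0.01. Deviations cancel within a group of 3, so these values cannot decide whether same-numbered libraries were paired. The highest correlation between the groups, 0.26, was that of replicate 2 of 786-O with replicate 1 labelled FOXD1null, and why was not tested. With the replicate block, 26 members, 61 further pathway genes and 4880 genes in all passed. For the 58 members and 10 named pathway genes, 1019 values were recomputed. Of these, 905 kept direction and side of the threshold, 66 lost the call, 30 gained one and 18 changed sign, in 7 genes near 0 that were not called. With equal totals, PDLIM5 was at -0.0045, EZR at -0.053 and MSN at -0.090. MSN was at -0.0097 with TMM factors and at -0.0071 with edgeR, and LIMA1 at 0.00045 with DESeq2. With 1 library left out, CNN3 ran from -0.12 to 0.031, LIMA1 from -0.095 to 0.042, EZR from -0.027 to 0.087, MSN from -0.050 to 0.065, CAPZA1 from -0.041 to 0.00019 and RND3 from -0.063 to 0.0085. The cause of each change was not tested. With 3 libraries per group, their spread limits the calls.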
